A study of Mus musculus with 2 samples.

Results

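The genes described are 36 genes of the cell division cycle, picked by symbol out of the 32285 genes listed in each count matrix: 17 that act in S phase, when DNA is copied, and 19 that act in G2 and M phase, when the cell prepares for and carries out mitosis. All 36 were found, none of them lies on the X or Y chromosome, and each had at least 100 UMIs over both libraries (a UMI is a molecular tag, so that 1 UMI counts 1 captured transcript). The study deleted Usb1, which encodes an exonuclease that trims the oligo(U) tail of the U6 small nuclear RNA, and asked which cell types of the mouse embryo change without it. Its single-cell measurement consisted of 2 droplet libraries of the whole embryo at day 9.5 of development, 1 of them wild type (Usb1+/+, called WT) and 1 Usb1-null (Usb1-/-). Usb1-null embryos lack Usb1 in every tissue through a germline CRISPR/Cas9 deletion, given as exon 2 in the methods and as exons 1 and 2 in the drawing of the strategy. The sources used here do not say how many embryos were pooled per library, and the labels name nuclear RNA whereas the methods describe a suspension of whole cells.

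With 1 library per genotype there was no replicate, so no difference between WT and Usb1-null could be tested, and genotype cannot be told apart from anything else that differed between the libraries. All intervals are 95% intervals that cover counting error only. After the study's filters WT held 15161 cells with a median of 1243 UMIs and Usb1-null 13018 cells with a median of 2299.5, and 61 barcodes occurred in both. Levels are given as CPM, the UMIs of a gene in each 1000000 UMIs of the library or cluster. Because tags come from the 3′ end, they were not divided by gene length. Usb1 itself had 68 UMIs in WT and 47 in Usb1-null, or a CPM of 3.13 and 1.41 (ratio 0.450, interval 0.303 to 0.662). It was thus lower in Usb1-null beyond counting error. Tags from the 3′ end would lie outside the deleted part, and the positions of tags were not read, so this does not check the deletion itself.

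In outline, the S phase genes copy the genome and the G2 and M phase genes divide it. Before S phase, Cdc6 and Cdt1 load the ring-shaped MCM2-7 helicase on replication origins, cyclin E kinase and the GINS complex help to start the forks, Pcna clamps the polymerase to the template, and Rrm1, Rrm2 and Tyms supply nucleotides. Later, cyclins A and B switch on Cdk1, the aurora and polo kinases build the spindle, kinetochore proteins attach chromosomes to it, and Anln and Kif23 help to split the cell. The S phase genes are classic targets of E2F factors, which pocket proteins such as Rb1 hold back, and the G2 and M phase genes are classic targets of the DREAM and MMB complexes and of NF-Y, which reads CCAAT boxes. In the day 9.5 embryo most tissues are dividing, whereas newborn neurons have left the cycle.

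The promoters of both groups differed in the motif letters they carried. RefSeq promoter windows of 300 bases (250 before and 50 after the start site, build GRCm38.p6) were at hand for 30 of the 36 genes, as 32 windows of 32851 in all. Ccne2, Mcm4, Gins2, Aurkb, Tpx2 and Ccna2 had no entry. Searched on both strands, CCAAT stood in 14 of 16 windows of the G2 and M phase genes and in 11 of 16 of the S phase genes, against 37.4% of all windows. The CHR letters TTTGAA or TTTAAA stood in 14 of 16 windows of the G2 and M phase genes and in 5 of 16 of the S phase genes, against 27.6% of all windows. The E2F letters TTTNNCGC went the other way, with 1 of 16 windows for G2 and M phase, 9 of 16 for S phase and 5.17% of all windows. CCAAT and CHR occurred together in 13 of 16 G2 and M phase windows, 4 of 16 S phase windows and 10.7% of all. Matches of different motifs overlapped in 2 of the 32 windows, Mcm7 and Uhrf1 each had 2 windows, and a match is only a match of letters.

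The sequences shown come from genes with a single window. They are the 4 S phase and 4 G2 and M phase genes with the most matches of any motif in the 250 bases before the start site. They were picked after the matches were seen. Tyms, Cdt1 and Cdc6, whose windows held E2F letters and no CCAAT, had fewer matches and are not shown. Each stretch runs 5′ to 3′ toward its gene and ends at the base before the RefSeq start site. Bases just after the start site were found in transcripts of the gene for 27 of the 32 windows, always in sense. Among the genes shown, they were not found for Mcm6 and Mcm5, whose start sites are less certain. Capitals mark CCAAT (or ATTGG, its reverse), TTTGAA or TTCAAA or TTTAAA, and TTTNNCGC or its reverse.
Mcm6 (chr1:128359706-128359955, minus strand): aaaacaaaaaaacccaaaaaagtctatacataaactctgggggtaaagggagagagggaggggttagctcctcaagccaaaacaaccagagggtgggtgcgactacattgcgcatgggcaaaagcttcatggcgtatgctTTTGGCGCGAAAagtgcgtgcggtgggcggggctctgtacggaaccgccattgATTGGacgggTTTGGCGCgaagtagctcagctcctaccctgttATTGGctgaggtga
Mcm5 (chr8:75109259-75109508, plus strand): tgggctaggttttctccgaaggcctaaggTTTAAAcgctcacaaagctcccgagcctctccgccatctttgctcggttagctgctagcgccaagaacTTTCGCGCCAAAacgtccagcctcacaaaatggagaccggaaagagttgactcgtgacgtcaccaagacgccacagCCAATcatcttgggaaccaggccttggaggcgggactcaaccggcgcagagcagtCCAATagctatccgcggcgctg
Mcm3 (chr1:20820313-20820562, minus strand): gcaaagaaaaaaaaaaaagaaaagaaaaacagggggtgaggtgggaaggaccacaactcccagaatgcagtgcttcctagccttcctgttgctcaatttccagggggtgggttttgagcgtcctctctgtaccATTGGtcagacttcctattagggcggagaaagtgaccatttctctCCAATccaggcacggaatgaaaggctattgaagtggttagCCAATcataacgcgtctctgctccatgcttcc
Rrm1 (chr7:102441445-102441694, plus strand): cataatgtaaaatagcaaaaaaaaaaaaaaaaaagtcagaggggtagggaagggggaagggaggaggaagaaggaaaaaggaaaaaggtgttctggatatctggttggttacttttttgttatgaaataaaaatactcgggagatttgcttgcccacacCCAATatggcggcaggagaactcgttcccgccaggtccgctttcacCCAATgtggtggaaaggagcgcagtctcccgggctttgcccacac
Top2a (chr11:99024190-99024439, minus strand): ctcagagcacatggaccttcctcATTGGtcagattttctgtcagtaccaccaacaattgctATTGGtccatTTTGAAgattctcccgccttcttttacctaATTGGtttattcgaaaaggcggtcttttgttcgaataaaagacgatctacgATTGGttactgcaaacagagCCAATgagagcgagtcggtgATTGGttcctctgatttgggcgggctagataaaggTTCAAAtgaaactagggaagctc
Cdk1 (chr10:69352913-69353162, minus strand): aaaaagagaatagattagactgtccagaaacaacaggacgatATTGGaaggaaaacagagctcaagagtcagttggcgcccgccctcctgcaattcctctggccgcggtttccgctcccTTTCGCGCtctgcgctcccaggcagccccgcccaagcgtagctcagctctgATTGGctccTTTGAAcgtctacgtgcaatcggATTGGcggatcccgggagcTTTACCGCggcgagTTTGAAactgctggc
Mki67 (chr7:135716380-135716629, minus strand): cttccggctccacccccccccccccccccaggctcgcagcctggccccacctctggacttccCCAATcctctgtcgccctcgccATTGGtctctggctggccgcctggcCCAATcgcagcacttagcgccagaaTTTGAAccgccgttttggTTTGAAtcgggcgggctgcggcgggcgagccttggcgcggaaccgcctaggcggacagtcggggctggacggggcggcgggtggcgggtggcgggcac
Ccnb2 (chr9:70421555-70421804, minus strand): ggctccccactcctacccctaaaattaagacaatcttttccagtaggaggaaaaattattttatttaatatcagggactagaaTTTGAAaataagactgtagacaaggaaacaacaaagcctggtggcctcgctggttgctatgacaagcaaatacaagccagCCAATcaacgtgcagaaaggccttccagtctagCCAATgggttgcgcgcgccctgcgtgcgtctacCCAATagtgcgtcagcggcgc

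In these stretches Top2a held 6 CCAAT boxes and a CHR close to the start site, and Ccnb2 held 3 CCAAT boxes evenly spaced before its start site. Cdk1, the kinase partner of cyclin B, was the 1 gene with E2F letters among the 16 G2 and M phase genes that had a window, and it held all 3 motifs. Mcm6 and Mcm5 each held an E2F stretch that reads on both strands, so that 2 of their E2F matches overlap. Mcm3 and Rrm1, both S phase genes, held CCAAT boxes and no E2F letters in the stretch shown, and the E2F letters of Mcm3 lay after its start site.

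Summed over each group and over all cells the libraries differed little, but among cells of like UMI count below 4000 UMIs they differed more, and the libraries stood apart in composition. The 17 S phase genes had a summed CPM of 1170.5 in WT and 1151 in Usb1-null, a Usb1-null over WT ratio of 0.984, interval 0.968 to 0.999. The 19 G2 and M phase genes had a summed CPM of 2626 in WT and 2574 in Usb1-null, a ratio of 0.980, interval 0.970 to 0.991. Mitochondrial UMIs made up 0.435% of WT and 0.191% of Usb1-null UMIs and ribosomal protein transcripts 2.68% and 1.91%, and the globin Hbb-y measured 449.8 and 75.8 CPM. With such UMIs and sex-linked ones left out of the totals the ratios were 0.969 for S phase and 0.965 for G2 and M phase, and the part of RNA quality beyond these totals was not tested. Both ratios were close to 1, with genes that offset each other behind them. The G2 and M ratio was 1.01 without Top2a and 0.927 without Mki67. The S phase ratio was 1.21, 1.19 and 1.14 in cells with 500 to 1000, 1000 to 2000 and 2000 to 4000 UMIs, with intervals above 1, and 1.02 above 4000 UMIs, with an interval that included 1. The G2 and M ratio in the same order of bins was 1.05, 0.867, 0.909 and 1.00, with intervals below 1 in the second and the third and including 1 in the others. The S phase ratio was 1.06 when only cells with at least 1000 detected genes were kept. Single genes moved further and in both directions, so that the sums hide a spread from 0.678 for Ccnb2 to 1.44 for Mki67. The median log2 ratio was -0.06 over the S phase genes and -0.11 over the G2 and M phase genes, and -0.01 over the 15031 genes with at least 100 UMIs (1 CPM added before the logarithm).

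By a difference of at least 20% downward or 25% upward, which is the same fold either way, 4 of the 36 genes were lower in Usb1-null, against 15.0% of all genes with at least 100 UMIs, and 2 were higher, against 13.2%. The 4 were Ccnb2, Cdca8, Cdk1 and Aurka, and the 2 were Mki67 and Ccne2. As shares of the 36 both counts were below the background share, but this turned with the processing. Among cells with at least 1000 detected genes 6 were lower, against 12.6% of all genes, and 6 higher, against 14.6%, and with the totals above 7 were lower, against 16.5%, and 2 higher, against 12.3%. All of these counts but the 2 higher were above the share of all genes. So were the 4 lower when genes under 100 UMIs were kept in, since the share of all listed genes was then 8.19%. Nusap1, Tyms and Tpx2 lay just short of that fold on the low side (0.798, 0.804 and 0.804, with 1 CPM added before the cut was applied), and Cdc6, Pcna, Aurkb and Mcm4 came nearest on the high side (all between 1.18 and 1.19).

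**Figure D1:**
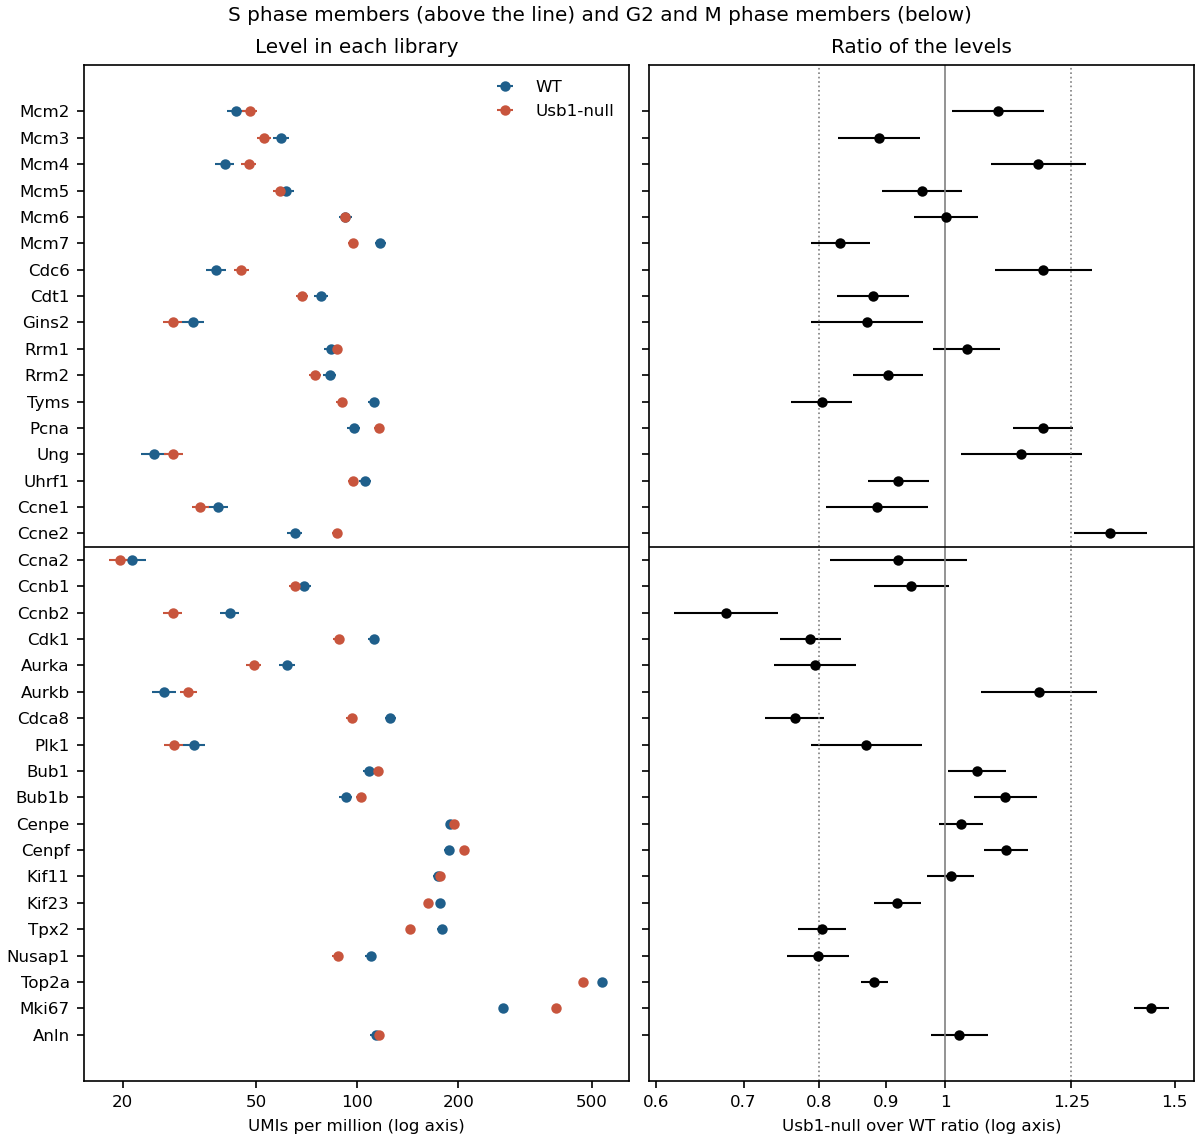
Level of each gene in CPM on a log axis (left; WT blue, Usb1-null red) and the Usb1-null over WT ratio on a log axis (right), with 95% counting intervals as bars. Genes are ordered by role with S phase above the line, dotted lines mark 20% below and 25% above 1, and Ccnb2 and Mki67 are the ends of the spread.

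Among the helicase and its loaders, members of 1 complex did not move together. The 6 MCM genes had a summed CPM of 413 in WT and 396 in Usb1-null. Mcm7 measured 117 in WT and 97.3 in Usb1-null (ratio 0.831, interval 0.789 to 0.875), and Mcm4 measured 40.2 in WT and 47.4 in Usb1-null (ratio 1.18, interval 1.08 to 1.28). Mcm7 was thus lower and Mcm4 higher in Usb1-null, although both proteins sit in the same ring. Mcm2 measured 43.5 in WT and 47.7 in Usb1-null, Mcm3 59.3 in WT and 52.8 in Usb1-null, Mcm5 61.2 in WT and 58.7 in Usb1-null and Mcm6 92.0 in WT and 92.1 in Usb1-null, and the intervals of the ratio of Mcm5 and Mcm6 included 1. Cdc6, which helps load the ring, measured 37.9 in WT and 45.1 in Usb1-null (ratio 1.19, interval 1.09 to 1.30). Its partner in loading, Cdt1, measured 77.8 in WT and 68.4 in Usb1-null (ratio 0.880, interval 0.826 to 0.937), on the other side of 1. Gins2, a subunit of the GINS complex that activates the helicase, measured 32.4 in WT and 28.2 in Usb1-null.

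The 3 genes of nucleotide supply had a summed CPM of 278 in WT and 251 in Usb1-null (ratio 0.904, interval 0.875 to 0.935). Tyms, thymidylate synthase, had the lowest ratio of the 3, at 112 in WT and 89.8 in Usb1-null (ratio 0.804, interval 0.762 to 0.848). Of the ribonucleotide reductase subunits, Rrm2 measured 82.7 in WT and 74.8 in Usb1-null and Rrm1 83.6 in WT and 86.8 in Usb1-null, and the interval of the Rrm1 ratio included 1. Pcna, the sliding clamp, was on the other side, at 97.5 in WT and 116 in Usb1-null (ratio 1.19, with an interval above 1). Ung, the glycosylase that removes uracil from DNA, measured 24.8 in WT and 28.3 in Usb1-null, and Uhrf1, which keeps DNA methylation through replication, 105 in WT and 96.9 in Usb1-null. The 2 E cyclins, which drive entry into S phase, differed from each other, with Ccne2 at 65.0 in WT and 87.1 in Usb1-null (ratio 1.34, interval 1.26 to 1.43) and Ccne1 at 38.4 in WT and 34.0 in Usb1-null (ratio 0.887, interval 0.810 to 0.971). Ccne2 was the S phase gene with the highest ratio.

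The A and B cyclins and Cdk1 had a summed CPM of 244 in WT and 201 in Usb1-null (ratio 0.824, interval 0.795 to 0.855). Of these 4 genes 2 had an interval below 1, Ccnb2 and Cdk1, as had 4661 of all 15031 genes with at least 100 UMIs. Ccnb2, cyclin B2, measured 41.6 in WT and 28.2 in Usb1-null from 904 and 942 UMIs, the lowest ratio of the 36 (0.678, interval 0.619 to 0.744). Cdk1 measured 112 in WT and 88.0 in Usb1-null (ratio 0.788, interval 0.746 to 0.831). The main mitotic cyclin Ccnb1 measured 69.4 in WT and 65.4 in Usb1-null and Ccna2, cyclin A2, 21.4 in WT and 19.7 in Usb1-null, and the intervals of both ratios included 1, so that these could not be told from equal at this depth.

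The mitotic kinases split. Aurka, which acts at the spindle poles, measured 61.8 in WT and 49.1 in Usb1-null (ratio 0.795, interval 0.739 to 0.855), whereas Aurkb, the kinase of the chromosomal passenger complex, measured 26.6 in WT and 31.4 in Usb1-null (ratio 1.18, interval 1.07 to 1.31). Cdca8 (borealin) is a subunit of that same passenger complex, yet measured 125 in WT and 96.1 in Usb1-null (ratio 0.766, interval 0.728 to 0.806). Plk1, polo-like kinase 1, measured 32.6 in WT and 28.4 in Usb1-null. The checkpoint genes Bub1 and Bub1b, which hold back anaphase until chromosomes are attached, measured 109 in WT and 115 in Usb1-null, and 92.4 in WT and 103 in Usb1-null. The kinetochore genes were level or slightly higher in Usb1-null, with Cenpe, a kinesin, at 189 in WT and 195 in Usb1-null and Cenpf at 187 in WT and 208 in Usb1-null (ratio 1.11, interval 1.07 to 1.16).

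Of the spindle genes, Tpx2, which nucleates microtubules, measured 179 in WT and 144 in Usb1-null (ratio 0.804, interval 0.771 to 0.839), and Nusap1, which bundles them, 109 in WT and 87.4 in Usb1-null (ratio 0.798, interval 0.756 to 0.843). Kif11, the motor that pushes the poles apart, measured 174 in WT and 176 in Usb1-null and did not differ beyond counting error, and Kif23, a motor of the midzone, measured 177 in WT and 162 in Usb1-null. Anln, the anillin of the cleavage furrow, measured 113 in WT and 116 in Usb1-null, with an interval of the ratio that included 1. It overlaps Gm48646 on the same strand, so its counts are less certain.

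The pair with the most UMIs went in opposite directions. Top2a, the topoisomerase that untangles sister chromosomes, had 11616 and 15744 UMIs, or a CPM of 535 in WT and 472 in Usb1-null (ratio 0.882, interval 0.861 to 0.904). Mki67 encodes the Ki-67 protein that coats mitotic chromosomes and serves as a marker of cycling cells. It had 5889 and 13028 UMIs, or 271 in WT and 390.2 in Usb1-null (ratio 1.44, interval 1.40 to 1.49), the highest ratio of the 36. Mki67 lies at chr7:135689784-135716361 (GRCm38, minus strand) and Ccnb2 at chr9:70407692-70421547 (minus strand), spanning 26.6 kb and 13.9 kb in GENCODE M21, and neither overlaps a counted gene on its own strand.

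Shares of cells with a UMI were compared at equal depth. Cells were thinned to 500 UMIs each, a number that every cell reached. A Top2a UMI was then seen in 21.9% of WT and 19.9% of Usb1-null cells, and an Mki67 UMI in 12.1% and 17.5%. Without thinning these shares were 46.3% and 58.6% for Top2a, and 29.4% and 56.2% for Mki67, higher in the deeper Usb1-null library for both genes. In neuron-like cells, which should have left the cycle (median UMIs 1149 in WT and 2348 in Usb1-null), the thinned shares were 11.5% and 16.4% for Top2a, and 8.23% and 10.9% for Mki67. For 29 of the 36 genes in WT and all 36 in Usb1-null, the share over all cells lay within the counting interval of the neuron-like share (243 and 128 cells), so that those shares could not be told from the neuron-like level at this depth.

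Across cell types, the comparison took in the 19 clusters that held 100 cells or more from both libraries. The 36 genes and their 99 companions, other cell cycle genes, were left out of the genes that formed the clusters. Names rest on marker lists, and 5 of the 19 had no name (clusters 4, 8, 10, 14 and 17). The summed S phase level ran from 728 to 2504 CPM over the clusters in WT and from 716 to 2486 in Usb1-null. The summed G2 and M level ran from 1726 to 3433 and from 1913 to 3514. The order of clusters was similar in both libraries, with a Spearman rho of 0.932 for S phase and 0.821 for G2 and M phase over 19 clusters that were defined on both libraries together.

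Cluster 8 stood apart at the top of the S phase order, with 2504 (interval 2387 to 2625) CPM in WT and 2486 (interval 2389.5 to 2585) in Usb1-null. Next came neural progenitor-like cells in WT at 1408 (interval 1358 to 1459) and primitive erythroid-like cells in Usb1-null at 1414 (interval 1302 to 1533). The lowest levels were in neuron-like cells (728 in WT, 871 in Usb1-null) and cardiomyocyte-like cells (752 and 716). Between those ends, neighbours in the order overlapped in their counting intervals nearly throughout, from forebrain and midbrain-like cells (1246 and 1212) through somite-like cells (1071 and 1073) to endothelial-like cells (949.5 and 924).

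For G2 and M phase the primitive erythroid-like cells led in both libraries, with 3433 (interval 3299.6 to 3571) in WT and 3514 (interval 3337 to 3699) in Usb1-null, with intervals above those of every other compared cluster. These are the first red cells of the embryo. When cells with under 1000 detected genes were removed before clustering, the primitive erythroid-like cells (163 in WT and 145 in Usb1-null) still led in Usb1-null, at 3539, but not in WT, where they measured 2925 and dorsal neural tube-like cells were highest at 3035. Neural progenitor-like (2913 and 2738), dorsal neural tube-like (2869 and 2807), cluster 17 (2829 and 2566) and forebrain and midbrain-like cells (2828 and 2679.5) were next in WT with overlapping intervals, and in Usb1-null their intervals overlapped those of somite-like cells (2772) among others. At the low end were neuron-like cells (1726 and 2081), cluster 8 (1792 and 1925) and cardiomyocyte-like cells (1968 and 1913), of which the first and the third did not overlap in WT.

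**Figure D2:**
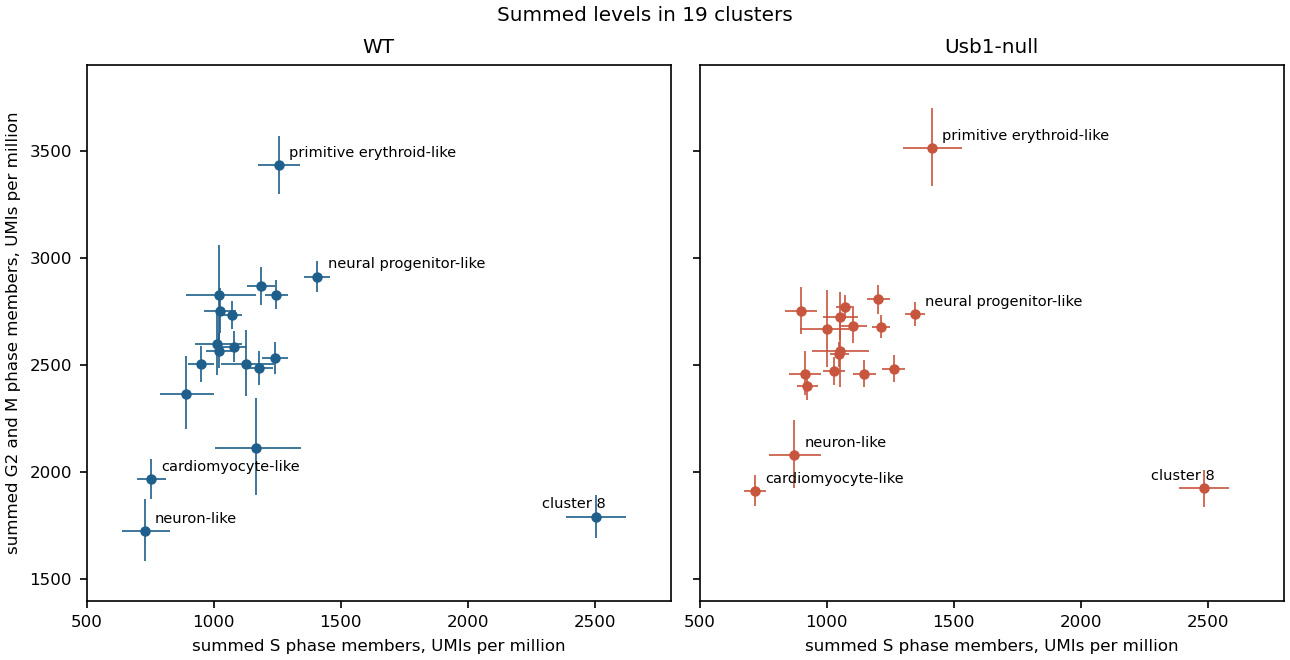
Summed level of the G2 and M phase genes against that of the S phase genes, both in CPM, for 19 clusters in WT (left) and Usb1-null (right), with 95% counting intervals as bars. Cluster 8 lies alone at the right with a low G2 and M level, primitive erythroid-like cells lie alone at the top, and neuron-like and cardiomyocyte-like cells lie at the lower left.

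In cluster 8 all 17 S phase genes were higher than in all other clusters together, 1.60-fold (Tyms) to 3.54-fold (Ung) in WT and 1.37-fold (Rrm1) to 3.39-fold (Mcm4) in Usb1-null. Of all genes with at least 100 UMIs, 54.2% were higher there in WT and 53.9% in Usb1-null. Of the 19 G2 and M phase genes, 17 were lower in WT and 15 in Usb1-null, against 45.8% and 46.1% of all genes. Kif11 was 0.359-fold, interval 0.260 to 0.483, in WT and 0.380-fold, interval 0.295 to 0.481, in Usb1-null. Mki67 was higher instead, at 1.35-fold, interval 1.19 to 1.54, in WT and 1.22-fold, interval 1.11 to 1.34, in Usb1-null. The companions went with the members, since 26 of 28 other S phase genes were higher there in each library and 30 of 40 other G2 and M phase genes were lower. The cluster was singled out for its summed S phase level, so the S phase counts partly restate that choice and all these folds are a description.

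Other measures moved with cluster 8, and their part was not tested. It held 876 WT and 805 Usb1-null cells with median UMIs of 712 and 1172, against 1284 and 2379 in all other clusters. Ribosomal protein transcripts made up 4.10% and 3.10% of its UMIs against 2.63% and 1.87%, mitochondrial UMIs 0.630% and 0.280% against 0.429% and 0.188%, and Malat1, a nuclear RNA, 0.259% and 0.279% against 0.784% and 0.843%. It had no leading marker of any cell type list and was left unnamed. No cluster of that level was formed when cells with under 1000 detected genes or called doublets were removed before clustering, where the highest S phase levels in WT were 1371 and 1562.

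In primitive erythroid-like cells the member furthest above all other cells was Mki67, at 570.4 CPM in WT and 897 in Usb1-null, 2.19-fold, interval 1.97 to 2.42, and 2.34-fold, interval 2.10 to 2.59, over all other cells. Top2a stood at 716 and 638. Of the 19 G2 and M phase genes, 15 were above the other cells in WT and 13 in Usb1-null, against 42.3% and 43.5% of all genes with at least 100 UMIs. The 40 G2 and M phase companions were split, with 21 above and 19 below in WT (median ratio 1.02) and 27 above and 13 below in Usb1-null (median 1.12). Because the cluster is described for its summed G2 and M level, the G2 and M counts partly restate that choice. Of the 17 S phase genes 10 were above and 7 below in WT (median ratio 1.03) and 14 above and 3 below in Usb1-null (median 1.26). Cdc6, named because its ratio was the highest of these in both libraries, was 1.56-fold, interval 1.12 to 2.13, in WT and 1.94-fold, interval 1.35 to 2.69, in Usb1-null. This cluster held 616 WT and 196 Usb1-null cells, and median UMIs of 842 and 1742.

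Neuron-like cells were read against neural progenitor-like cells, since neurons arise from neural progenitors. Of the 17 S phase genes 16 were lower in neuron-like cells in WT and 16 in Usb1-null, with median ratios of 0.455 and 0.650. Of all genes with at least 100 UMIs, 56.9% and 59.3% were lower. Of the 19 G2 and M phase genes 19 were lower in WT and 17 in Usb1-null, with medians of 0.621 and 0.708. Top2a went from 628 to 329 CPM in WT and from 529 to 373 in Usb1-null. Cdc6 measured 44.6 and 6.14 in WT, the latter from 2 UMIs, and 53.5 and 31.1 in Usb1-null. Of the CDK inhibitors 2 had at least 20 UMIs in this comparison. Cdkn1c went the other way, at 2.51-fold, interval 1.70 to 3.63, in WT and 4.80-fold, interval 3.33 to 6.82, in Usb1-null, whereas Cdkn1b was at 1.02-fold, interval 0.387 to 2.27, in WT and 0.944-fold, interval 0.368 to 2.04, in Usb1-null.

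Transcripts of other cell types were found in neuron-like cells too, and the part of free RNA in these levels was not tested. The erythroid globin Hbb-y measured 150.5 in WT and 18.7 in Usb1-null there, against 8557 and 4178 in primitive erythroid-like cells, and the cardiac Ttn 67.6 and 28.0. The neuronal Elavl3 measured 759 and 591 in neuron-like cells.

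**Figure D3:**
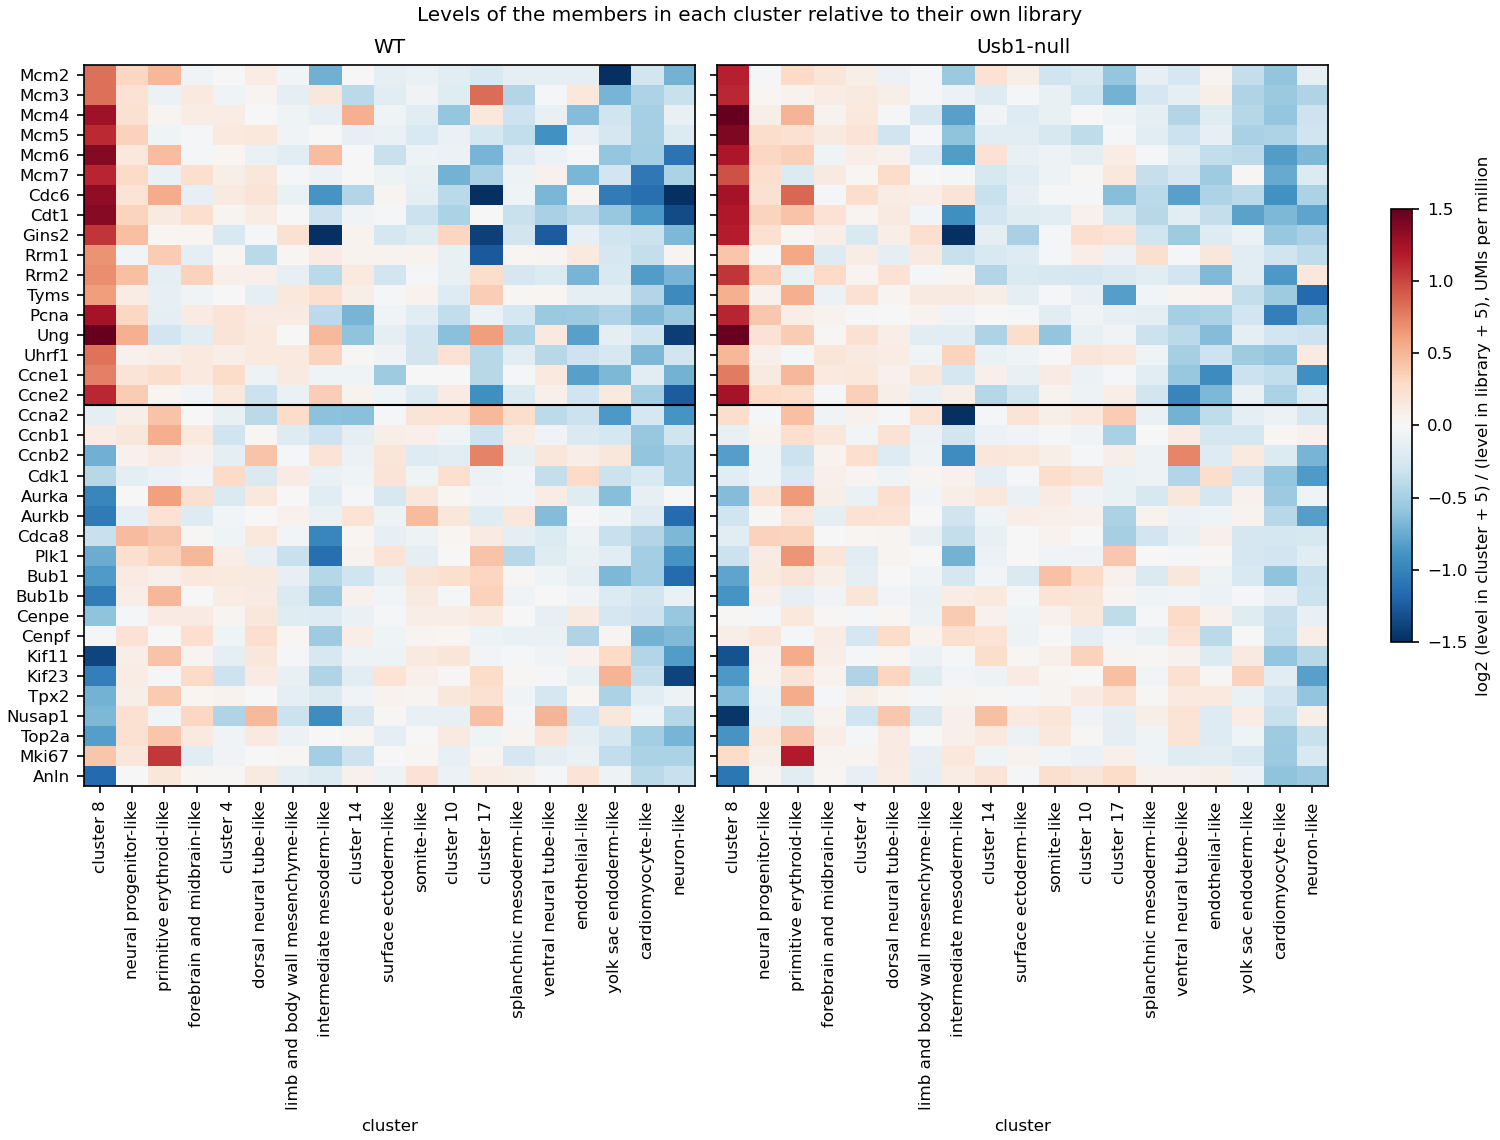
Each gene's level in each cluster relative to its level in the whole library (log2, 5 CPM added), in WT (left) and Usb1-null (right), with S phase genes above the line and clusters ordered by their summed S phase level in WT. Cluster 8 is red in all 17 S phase rows and mostly blue below the line, and the neuron-like and cardiomyocyte-like columns are mostly blue.

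Within clusters the libraries again lay close together. The ratio of the summed S phase level was between 0.860 and 1.20 with a median of 0.993, and its interval included 1 in 16 of 19 clusters. That of the G2 and M level was between 0.907 and 1.26 with a median of 0.987, and its interval included 1 in 14 of 19. Neuron-like cells, the cluster of 243 WT and 128 Usb1-null cells, were the only one of the 19 whose intervals lay above 1 for both groups, barely so for S phase (1.20, interval 1.00 to 1.43 for S phase and 1.21, interval 1.08 to 1.35 for G2 and M phase). Intermediate mesoderm-like cells, from 113 WT and 115 Usb1-null cells, had the highest G2 and M ratio (1.26, interval 1.11 to 1.43) and the lowest S phase ratio (0.860, interval 0.717 to 1.03). Among the large clusters, neural progenitor-like cells had a G2 and M ratio of 0.940, interval 0.910 to 0.970, and forebrain and midbrain-like cells 0.948, interval 0.918 to 0.978.

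**Figure D4:**
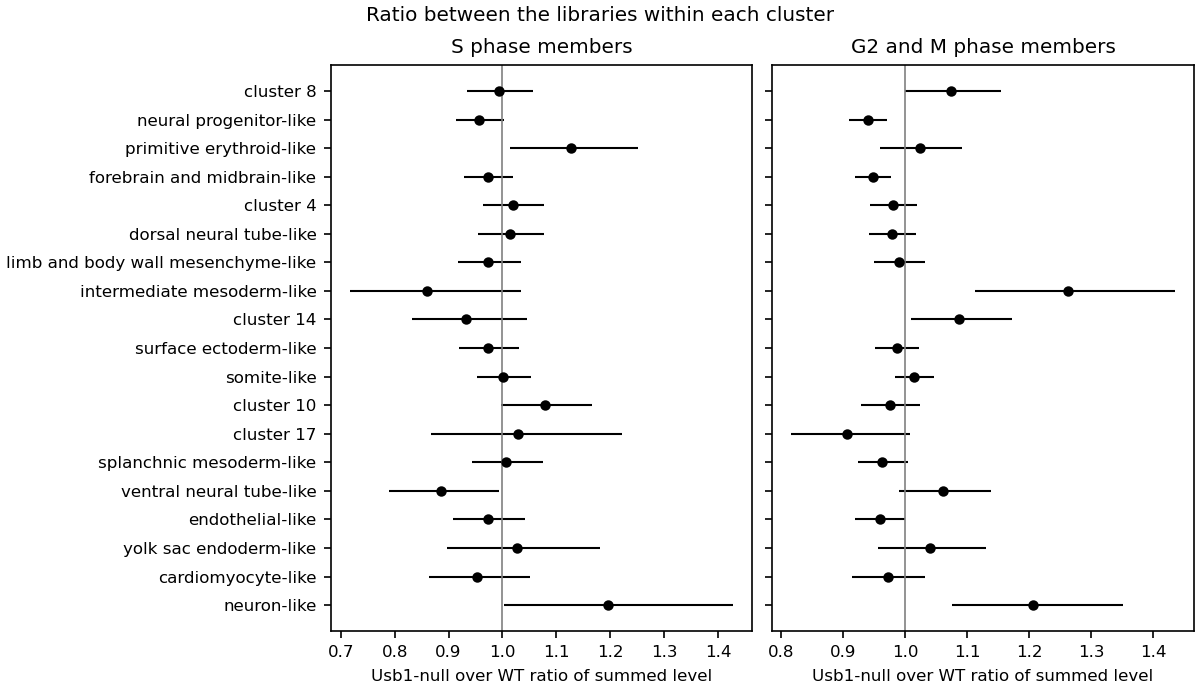
Usb1-null over WT ratio of the summed S phase level (left) and G2 and M level (right) in each of 19 clusters, with 95% counting intervals as bars and a line at 1. Most bars cross 1, and neuron-like cells lie above 1 in both panels.

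Of the 36 genes, 19 kept 1 direction in at least 15 of the 19 clusters and 17 did not. Clusters share their library and are not replicates, so this shows that a difference was spread over cell types and not that it belongs to the genotype. Mki67 was higher in Usb1-null in all 19 clusters, for example at 193 in WT and 266 in Usb1-null cardiomyocyte-like cells and at 277 and 379.6 in somite-like cells. Pcna was higher in 18 of 19, and Cdc6, Ccne2 and Cenpf in 17 each. Ccnb2, Cdk1 and Tyms were lower in 18 of 19 each. Counting genes with 1 direction in at least 15 of the 19 clusters, 11 of the 36 were lower in Usb1-null (Rrm2, Tyms, Uhrf1, Ccne1, Ccnb2, Cdk1, Aurka, Cdca8, Tpx2, Nusap1 and Top2a), against 16.5% of all genes with at least 100 UMIs. By the same count 8 were higher (Mcm4, Cdc6, Pcna, Ccne2, Aurkb, Bub1b, Cenpf and Mki67), against 16.2%. Both counts were above the background share. Genes with many UMIs keep 1 direction more easily by counting alone, and this was not adjusted for.

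Cells rich in either group were counted after thinning to 500 UMIs. At least 3 UMIs of the S phase genes were seen in 602 of 15161 WT cells (3.97%, interval 3.67% to 4.29%) and 503 of 13018 Usb1-null cells (3.86%, interval 3.54% to 4.21%). At least 3 UMIs of the G2 and M phase genes were seen in 15.8% of WT (interval 15.2% to 16.3%) and 14.8% of Usb1-null cells (interval 14.2% to 15.4%). Another random draw gave 15.9% and 14.9%, all deposited barcodes 15.7% and 15.6%, and removal of doublets 15.6% and 15.3%. The intervals do not cover the random draw of the thinning, and the gap in the G2 and M share moved with the processing. The S phase direction turned with the processing, since with cells thinned to 1000 UMIs, which leaves out shallower cells, the shares were 13.3% and 14.6%, and among cells with at least 1000 detected genes 2.69% and 3.54%. Unthinned, 24.9% and 48.1% of cells reached the S phase cut and 53.9% and 73.3% the G2 and M cut, higher in the deeper library. These classes are ranges of a sum and not cell cycle phases, since 1569 WT and 1304 Usb1-null cells lay 1 UMI under the S phase cut and 2912 and 2501 under the G2 and M cut. By cluster, the G2 and M share was highest in primitive erythroid-like cells (29.4% and 23.0%) and low in cardiomyocyte-like cells (8.45% and 7.66%). The S phase share was 14.0% and 13.5% of cluster 8 in WT and Usb1-null. In neuron-like cells it was 5 of 243 WT cells (2.06%, interval 0.671% to 4.74%) and 1 of 128 Usb1-null cells (0.781%, interval 0.0198% to 4.28%), too few to read a direction from and opposite to that of their summed S phase level.

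Within single cells, genes of 1 group were seen together more often than genes of different groups. In thinned cells, a pair of S phase genes was seen in the same cell 1.18 times as often in WT, and 1.22 times as often in Usb1-null, as the genes' shares in each cluster would give if they were unrelated. A pair of G2 and M phase genes was seen together 1.19 and 1.22 times as often, and a mixed pair 0.862 and 0.870 times. Cenpf with Kif23 occurred in 141 WT cells where 96.6 would be given (ratio interval 1.23 to 1.72) and in 119 Usb1-null cells for 79.7. Ccne2 with Kif23, a cyclin of S phase entry and a motor of late mitosis, occurred in 23 WT cells for 42.9 (ratio interval 0.340 to 0.804) and in 25 Usb1-null cells for 40.3. These pairs were chosen after their values were seen.

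The companions, which took no part in grouping the cells, followed the same split. From cells with no S phase UMI to cells with at least 3, the 28 S phase companions went from 3209 to 5239 CPM in WT and from 3208 to 5044 in Usb1-null, and the 40 G2 and M phase companions went from 5064 to 4138 and from 4959.5 to 4168. From cells with no G2 and M phase UMI to cells with at least 3, the G2 and M phase companions went from 4106 to 6036 and from 3989 to 5910.4, and the S phase companions from 3929 to 3043 and from 3825 to 3032. Median UMIs moved along the bins too, from 1300.0 to 1009.5 in WT along the S phase bins, and cluster 8 gave 123 of the 602 WT cells with at least 3 S phase UMIs. Without cluster 8, left out after the data were seen, the S phase companions went from 3164 to 4898 in WT and from 3172 to 4784 in Usb1-null along the S phase bins. The part of depth was not tested. Single genes showed it too, chosen after their values were seen. Dtl, which marks Cdt1 for removal in S phase, went from 158 to 323 in WT along the S phase bins, and Cenpa, the centromere histone, from 104 to 199 along the G2 and M bins.

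**Figure D5:**
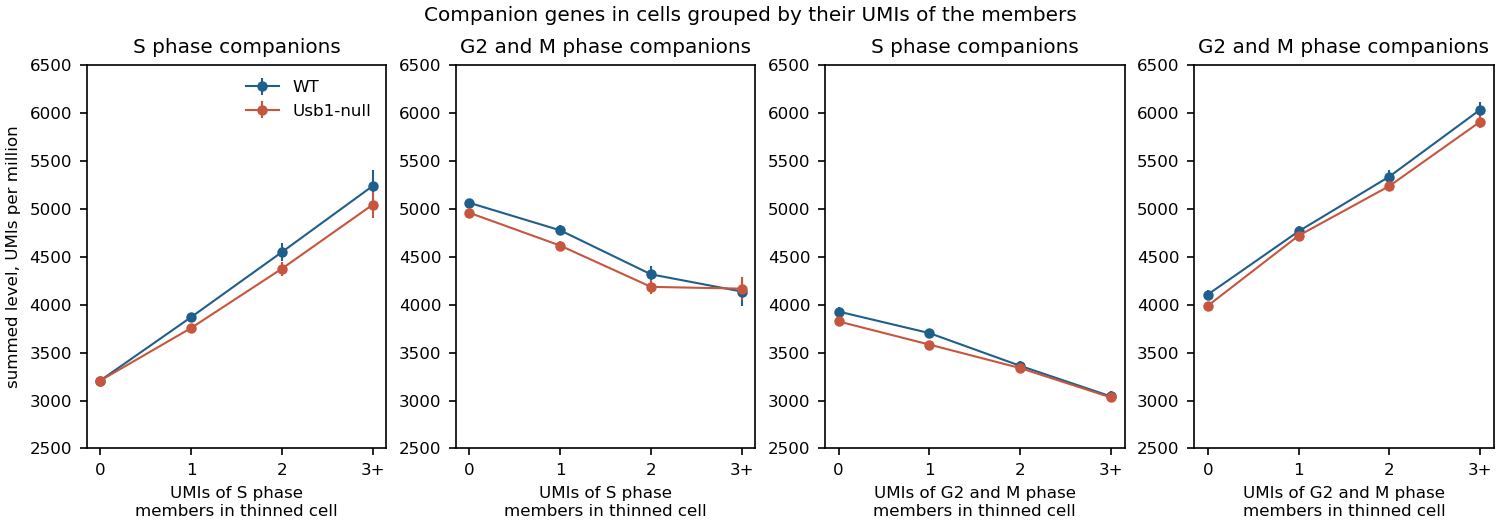
Summed level of the S phase companions and of the G2 and M phase companions (CPM, on an axis that does not start at 0) in cells grouped by their UMIs of the S phase genes (left pair) or of the G2 and M phase genes (right pair) after thinning to 500 UMIs, with 95% counting intervals. Each companion group goes up along its own axis and down along the other, and WT (blue) and Usb1-null (red) run nearly on top of each other.

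Depth moved with both sums and differs between the libraries, and its part in the ratios was not tested. Cells with 500 to 1000 UMIs made up 32.8% of WT and 4.70% of Usb1-null cells. In WT the summed S phase level went from 1492 in those cells to 987 in cells with 2000 to 4000 UMIs, while the G2 and M level went from 2297 to 2869. Between cells of like UMI count the libraries differed more than as a whole in the bins below 4000 UMIs. At 500 to 1000 UMIs the S phase ratio was 1.21 (interval 1.12 to 1.30) and the G2 and M ratio 1.05 (interval 0.986 to 1.12), which included 1. At 1000 to 2000 UMIs the S phase ratio was 1.19 (interval 1.16 to 1.22) and the G2 and M ratio 0.867 (interval 0.851 to 0.885), and at 2000 to 4000 UMIs they were 1.14 and 0.909. Above 4000 UMIs, with 205 WT and 1458 Usb1-null cells, both were close to 1 (1.02 and 1.00). Equal UMIs do not mean equal RNA content in 2 libraries of different depth.

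Among the wider cell cycle genes shifts went in both directions. Of the 28 S phase companions 17 were lower and 11 higher in Usb1-null (median log2 ratio -0.05), and of the 40 G2 and M phase companions 24 were lower and 16 higher (median -0.08). Of all 15031 genes with at least 100 UMIs, 7756 were lower and 7275 higher. Past the same fold were 3 lower S phase companions and none higher, and 7 lower and 3 higher G2 and M phase companions, where 15.0% of all genes were lower and 13.2% higher. Of these counts the 7 lower came out slightly above the share of all genes and the others below it. The lowest S phase ratios were those of Clspn, the checkpoint mediator claspin, with a CPM of 123 in WT and 89.6 in Usb1-null, and Rpa2, which coats single-stranded DNA, at 58.0 in WT and 43.0 in Usb1-null. Highest were Pold3, a polymerase delta subunit, at 92.6 in WT and 113 in Usb1-null, and Mcm10 at 58.8 in WT and 71.2 in Usb1-null. Among G2 and M phase companions Tubb4b, a tubulin, measured 76.7 in WT and 48.3 in Usb1-null and Jpt1 183 in WT and 122 in Usb1-null, while Gtse1, a microtubule-binding protein of G2, measured 15.0 in WT and 24.0 in Usb1-null (ratio 1.61, interval 1.41 to 1.83) and Gas2l3 28.6 in WT and 39.3 in Usb1-null.

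The genes that gate entry into the cycle were mixed as well. Cdk4, the partner of cyclin D, measured 72.4 in WT and 49.3 in Usb1-null (ratio 0.681, interval 0.635 to 0.730) and was lower in Usb1-null in all 19 clusters. Ccnd3 measured 67.1 in WT and 57.7 in Usb1-null, Cdk2, the partner of cyclins E and A, 21.5 in WT and 28.6 in Usb1-null, and Myc 9.34 in WT and 14.5 in Usb1-null. Of the CDK inhibitors Cdkn1a (p21), a target of p53, had 74 and 227 UMIs, or 3.41 in WT and 6.80 in Usb1-null (ratio 2.00, interval 1.53 to 2.63). Cdkn1a was higher in Usb1-null in 12 and lower in 6 of the 19 clusters. It was highest in yolk sac endoderm-like cells in WT (31.6) and in endothelial-like cells in Usb1-null (26.6). Cdkn1c (p57) measured 63.7 in WT and 51.4 in Usb1-null, Cdkn1b (p27) 22.2 in WT and 22.7 in Usb1-null and Cdkn2d 5.34 in WT and 4.46 in Usb1-null, and Cdkn2c had 6 and 17 UMIs. Among pocket proteins and E2F factors, 7 were lower and 8 higher, where 7756 of all 15031 genes with at least 100 UMIs were lower and 7275 higher. E2f2 (35.8 in WT and 23.5 in Usb1-null) and E2f1 (75.4 in WT and 61.3 in Usb1-null) were at the low end. Rb1 (119 in WT and 136 in Usb1-null) and Foxm1 (41.4 in WT and 46.6 in Usb1-null) were at the high end. E2f2 was highest in primitive erythroid-like cells, at 105 in WT and 50.3 in Usb1-null, and was lower in Usb1-null in 14 and higher in 5 of the 19 clusters. Those cells were also fewer in Usb1-null, 196 against 616, and the part of their number was not tested.

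Outside the 36 genes and their companions, the genes whose level over the 19 WT clusters was most like the summed S phase level were Mcmbp, Supt16, Cmss1, Orc6 and Ppp1r8 (Pearson r 0.911 to 0.883 among 7831 genes searched, and 0.645 to 0.953 for the same genes in Usb1-null). Each was highest in cluster 8. Mcmbp encodes a protein that binds the MCM helicase, Supt16 a subunit of the histone chaperone FACT and Orc6 a subunit of the origin recognition complex. Most like the G2 and M sum were Knl1, Rad51b, Cenpp, Zwilch and Kif15 (r 0.920 to 0.872, and 0.794 to 0.918 in Usb1-null), each highest in primitive erythroid-like cells. Knl1, Cenpp and Zwilch encode kinetochore proteins and Kif15 a spindle motor. Cmss1, Ppp1r8 and Rad51b fall outside these roles. The clusters share their library and their definition, so the r values are a description.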

How the data were processed

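The data were 2 deposited matrices of UMI counts per gene and cell (10x Genomics 3′ chemistry), which the authors made with Cell Ranger. The matrix header and the methods give version 6.1.2, the submitters' processing notes 2.1.1, and the build is mm10. The counts were used as deposited. The WT list holds more barcodes (15162) than the study's cell number and the Usb1-null list (13034) the same. Cells with 200 to 6000 genes and under 30% mitochondrial UMIs were kept, as in the study. Doublets were called (6.15% of WT and 4.37% of Usb1-null) and removed only as an alternative. Cells were clustered on 2000 variable genes with Scanpy 1.11.5, a Harmony correction rewritten in NumPy 2.4.6 and the Leiden method (leidenalg 0.10.2), leaving out the 36 genes and 99 companions.

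A cluster was named from marker lists where at least 3 markers were raised 2-fold, no other list had as many raised, its 10 leading genes held at least 1 of them and held fewer of any other list (or only shared ones), and its cells' median UMIs were not very low for their sample. The clusters had been seen when this naming rule was chosen. The members and lists were chosen with earlier results of these data known. Levels are summed CPM, ratios have exact binomial, sums exact Poisson and shares Clopper-Pearson 95% intervals (SciPy 1.17.1), and 1 CPM was added before logarithms. A gene was counted as lower or higher at 20% below or 25% above WT, among genes with at least 100 UMIs. Named companions were the 2 highest and 2 lowest ratios of each list and CDK inhibitors with at least 20 UMIs, and genes of like pattern came from those with at least 500 WT UMIs. With 1 library per group no test was run. The interval code was tested on simulated data. Genes were placed with GENCODE M21, which holds 99.6% of the gene IDs.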

Additional observations from a re-analysis of the deposited data

How the results depend on the processing

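With 1 library per genotype, no replicate could be left out. No paired analysis was possible because each group has 1 library and no comparison was tested. Of 105 summary values under the alternatives 89 kept their direction and stayed within the counting interval (counts of genes within 1.5 times), as did 451 of 468 log2 ratios of single genes, 197 of 214 ratios in a cluster and all 60 companion values. Keeping cells with at least 1000 detected genes changed several values. There the summed S phase ratio was 1.06, on the other side of 1, the G2 and M ratio 0.938, the median S phase log2 ratio 0.053, the count of genes at least 25% higher 6 (against 14.6% of all genes at that setting), the ratio of the S phase share 1.31 and that of the G2 and M share 0.865. There too the median G2 and M ratio within clusters was 0.930, the Bub1 log2 ratio -0.030 and the G2 and M ratio of cluster 14 0.958, the last 2 on the other side. With mitochondrial, ribosomal protein, globin and sex-linked UMIs left out of the totals, the G2 and M ratio was 0.965 and 7 genes were at least 20% lower (against 16.5% of all genes). Without Pcna the S phase ratio was 0.965, and without Top2a the G2 and M ratio was 1.01, on the other side of 1. Without Mki67, also left out after the data were seen, the G2 and M ratio was 0.927. The ratio of the S phase share was 1.10 with cells thinned to 1000 UMIs and 1.93 without thinning, and that of the G2 and M share 1.36 without thinning and 1.00 at a cut of 5 UMIs, the last 2 above 1. Unthinned shares follow the deeper library by construction, and the cause of the other shifts was not tested. Leaving out cluster 8, an alternative chosen after seeing the data, gave summed ratios of 0.985 for S phase and 0.978 for G2 and M phase. Depth limits the CDK inhibitors most, of which 4 of 7 reached 100 UMIs.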

Other observations

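The length of genes moved with the difference between the libraries and with cluster 8. Over coding genes with at least 100 UMIs, the median log2 ratio of Usb1-null over WT was -0.27 for 1226 genes that span under 5 kb, -0.06 for 2503 genes of 10 to 20 kb and 0.04 for 2033 genes of 50 to 100 kb, with a Spearman rho of 0.231 between span and ratio over 13184 genes. The same Spearman correlation was 0.199 over the 96 companions with at least 100 UMIs and 0.017 over the 36 cell cycle genes, and Pcna, the 1 gene of them under 5 kb, had a positive log2 ratio of 0.25. Genes are not independent replicates, so these are descriptions.

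In cluster 8, the cluster with the highest S phase level, coding genes over 100 kb had a median log2 ratio to all other clusters of -0.72 in WT and -0.76 in Usb1-null, against 0.40 and 0.44 for genes under 5 kb. Genes of 10 to 20 kb, where 12 of the 36 lie, were at 0.27 and 0.26, and genes of 20 to 50 kb, where 13 lie, 10 of them G2 and M phase genes, at 0.19 and 0.19. The median ratio of the 19 G2 and M phase genes in cluster 8, not on the log2 scale, was 0.551 in WT and 0.617 in Usb1-null. The median span was 13.5 kb for the S phase genes and 30.7 kb for the G2 and M phase genes, and none of the 36 spans over 100 kb. How far span accounts for the levels of either group in cluster 8 was not tested.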
